A study of Arabidopsis thaliana with 2 samples.

Results

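The genes described here are 44 nuclear genes of Arabidopsis thaliana that encode the small subunit of Rubisco, the light-harvesting antenna proteins and the nuclear subunits of photosystems I and II. They were chosen by name and function, with earlier results of these data known but with no measured value in the rule, and make up 44 of the 27444 protein-coding nuclear genes of the annotation. By complex they are 4 Rubisco small subunit genes, 14 genes of the photosystem II antenna (LHCII and its minor proteins), 4 genes of the photosystem I antenna (LHCI), 12 photosystem I genes and 10 photosystem II genes. Within 1000 bp upstream of the transcription start site (TSS) and 1000 bp past the transcription termination site (TTS) of these genes lay 138 of the 70046 MNase hypersensitive sites (MHSs) of replicate 1 and 107 of the 49934 of replicate 2.

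MHSs are regions where a light digestion of fixed chromatin with micrococcal nuclease (MNase) released many small DNA fragments, and they mark open chromatin. The material was seedling tissue of the ecotype Columbia (Col-0), 2 weeks old, fixed with formaldehyde, with no mutant and no treatment. Both libraries, replicate 1 and replicate 2, belong to this 1 group, and the labels do not say whether they came from separate plantings. The labels name no organ or cell type, so the MHSs were not assigned to green or non-green cells.

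Each file lists the positions of called MHSs and nothing else. An MHS therefore has a place and a length but no height and no read depth, and a gene without an MHS is one where none was called.

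Rubisco fixes carbon dioxide in the chloroplast, with its large subunit made from the plastid genome and its small subunit from nuclear RBCS genes. Antenna proteins bind chlorophyll and pass light energy to the photosystems, where photosystem II splits water and photosystem I reduces ferredoxin. Nuclear genes of this kind are a textbook case of transcription switched on by light, and their promoters gave the names G-box and I-box to short motifs, the G-box being bound by bZIP and bHLH proteins such as HY5 and the PIFs.

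Sequences from the MHSs of these promoters show where the motifs lie. All are read from TAIR10.1 in the direction of transcription, in lower case, with a G-box (CACGTG) or an I-box (GATAAG, or CTTATC on the other strand) in capitals. The first 4 are 30 bases from each of the 4 RBCS genes, around the G-box or, in RBCS1B, which has none there, around its I-boxes. They stand at chr1:25049491-25049520, chr5:15385303-15385332, chr5:15382177-15382206 and chr5:15378506-15378535, all on the minus strand, and all lie within MHSs of both replicates. The motifs of these 4 were searched for upstream of the innermost annotated TSS. From the outermost annotated TSS, the stretch of RBCS1A lies 147 to 176 bp past it and that of RBCS3B 107 to 136 bp past it. That of RBCS1B runs from 12 bp before the outermost TSS to 17 bp past it, and only that of RBCS2B lies wholly upstream.
RBCS1A: ggaattatcttcCACGTGgcattattccag
RBCS1B: aaagaaaGATAAGATAAGggtgtcaacacc
RBCS2B: ggagttttctgcCACGTGatCTTATCctag
RBCS3B: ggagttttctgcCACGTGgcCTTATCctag
RBCS2B and RBCS3B, tandem copies on chromosome 5, shared the stretch around the G-box, so their matches are not independent.

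A longer stretch of the RBCS2B promoter, 261 bases up to the base before the TSS (chr5:15382072-15382332, minus strand), was covered by an MHS in both replicates and held 3 I-boxes and 1 G-box.
RBCS2B promoter: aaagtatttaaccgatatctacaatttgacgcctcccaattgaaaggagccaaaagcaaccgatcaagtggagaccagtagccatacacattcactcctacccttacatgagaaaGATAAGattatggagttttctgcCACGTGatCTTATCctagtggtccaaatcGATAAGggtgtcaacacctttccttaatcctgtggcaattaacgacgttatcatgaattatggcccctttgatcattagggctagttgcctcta
The matching stretch of CAB2, an LHCB1 gene, was 268 bases long (chr1:10475970-10476237, minus strand) and held neither motif, although an MHS covered it in both replicates.
CAB2 promoter: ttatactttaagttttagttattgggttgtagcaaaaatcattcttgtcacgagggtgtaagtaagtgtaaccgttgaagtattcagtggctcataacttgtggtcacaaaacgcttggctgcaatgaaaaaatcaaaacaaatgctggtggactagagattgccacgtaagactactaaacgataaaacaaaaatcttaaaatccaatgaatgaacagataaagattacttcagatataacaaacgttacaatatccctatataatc

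Nearly all of the genes had an MHS near the start site in both libraries. An MHS overlapped the 500 bp upstream of the TSS in 44 of the 44 genes in replicate 1, against 76.9% of all protein-coding genes, and in 43 in replicate 2, against 67.6%. In both replicates it did so for 43 genes, against 65.5% of all protein-coding genes. By complex the 43 were 4 of 4 Rubisco small subunit genes, 13 of 14 LHCII genes, 4 of 4 LHCI genes, 12 of 12 photosystem I genes and 10 of 10 photosystem II genes.

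The TSS itself lay within an MHS in 39 genes in replicate 1 and 40 in replicate 2, against 58.5% and 49.6% of all protein-coding genes, and in 38 genes in both. The share of the 44 genes covered by an MHS was highest at 93.2% in replicate 1, 30 bp upstream of the TSS, and 90.9% in replicate 2, at the TSS. Over all protein-coding genes it peaked at 59.5% and 50.0%. The coverage was lowest within the gene: no gene of the 44 was covered 470 bp past the TSS in replicate 1 or 510 bp past it in replicate 2. Over all protein-coding genes the lowest shares were 3.35% and 2.44%, both 490 bp past the TSS. Further on a few genes were covered again, with 3 of the 44 covered 870 bp past the TSS in each replicate. That position was picked from the profile, with no share over all protein-coding genes beside it, and some of the shorter genes end before it.

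**Figure D1:**
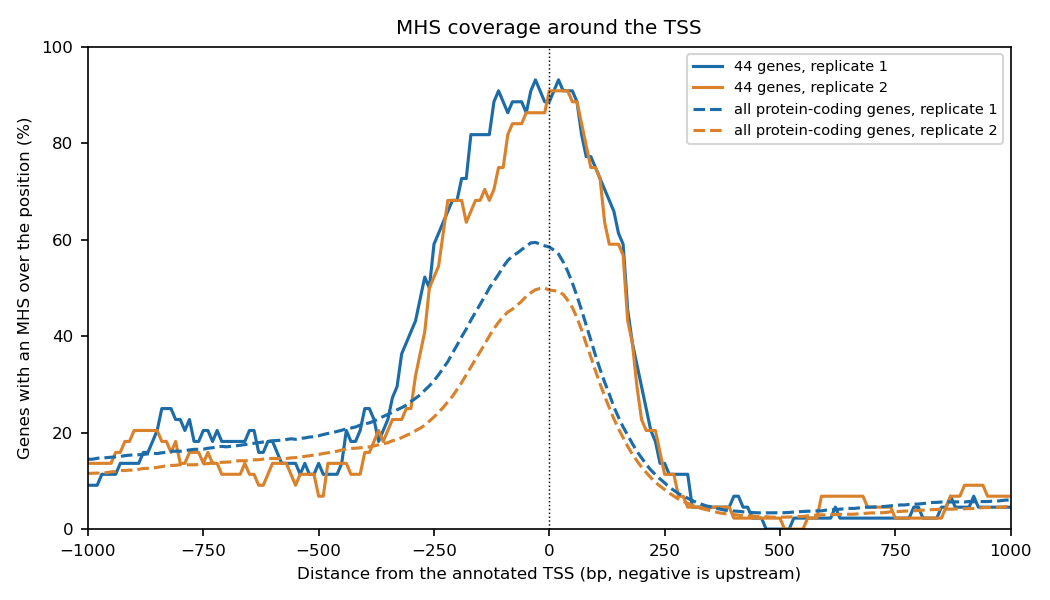
Percent of genes with an MHS over each position (vertical axis) by distance from the annotated TSS in bp (horizontal axis), for the 44 genes (solid lines) and all 27444 protein-coding genes (dashed lines), in replicate 1 (blue) and replicate 2 (orange). The solid lines reach 93.2% and 90.9% near the TSS and the dashed lines 59.5% and 50.0%.

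The median number of MHSs per gene equalled that over all protein-coding genes, while the median covered length was greater. There were 3 MHSs per window in replicate 1 and 2 in replicate 2, and over all protein-coding genes also 3 and 2. MHSs covered a median of 19.2% of the window of the 44 genes in replicate 1 and 19.3% in replicate 2, against 11.95% and 9.67% over all protein-coding genes. These windows were short: the median gene length was 1411.5 bp for the 44 genes and 2078 bp for all protein-coding genes. The covered length in bp had medians of 679.5 and 646 bp against 520 and 420 bp.

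The median promoter MHS was longer than that over all protein-coding genes. The longest MHS overlapping the 500 bp upstream had a median of 384.5 bp in replicate 1 and 360 bp in replicate 2, against 277 and 261 bp over the protein-coding genes that had one. It was over 400 bp in both replicates in 10 of the 44 genes, against 7.63% of all protein-coding genes. Of the upstream 500 bp itself a median of 273 and 260.5 bp was covered, against 170 and 120 bp.

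**Figure D2:**
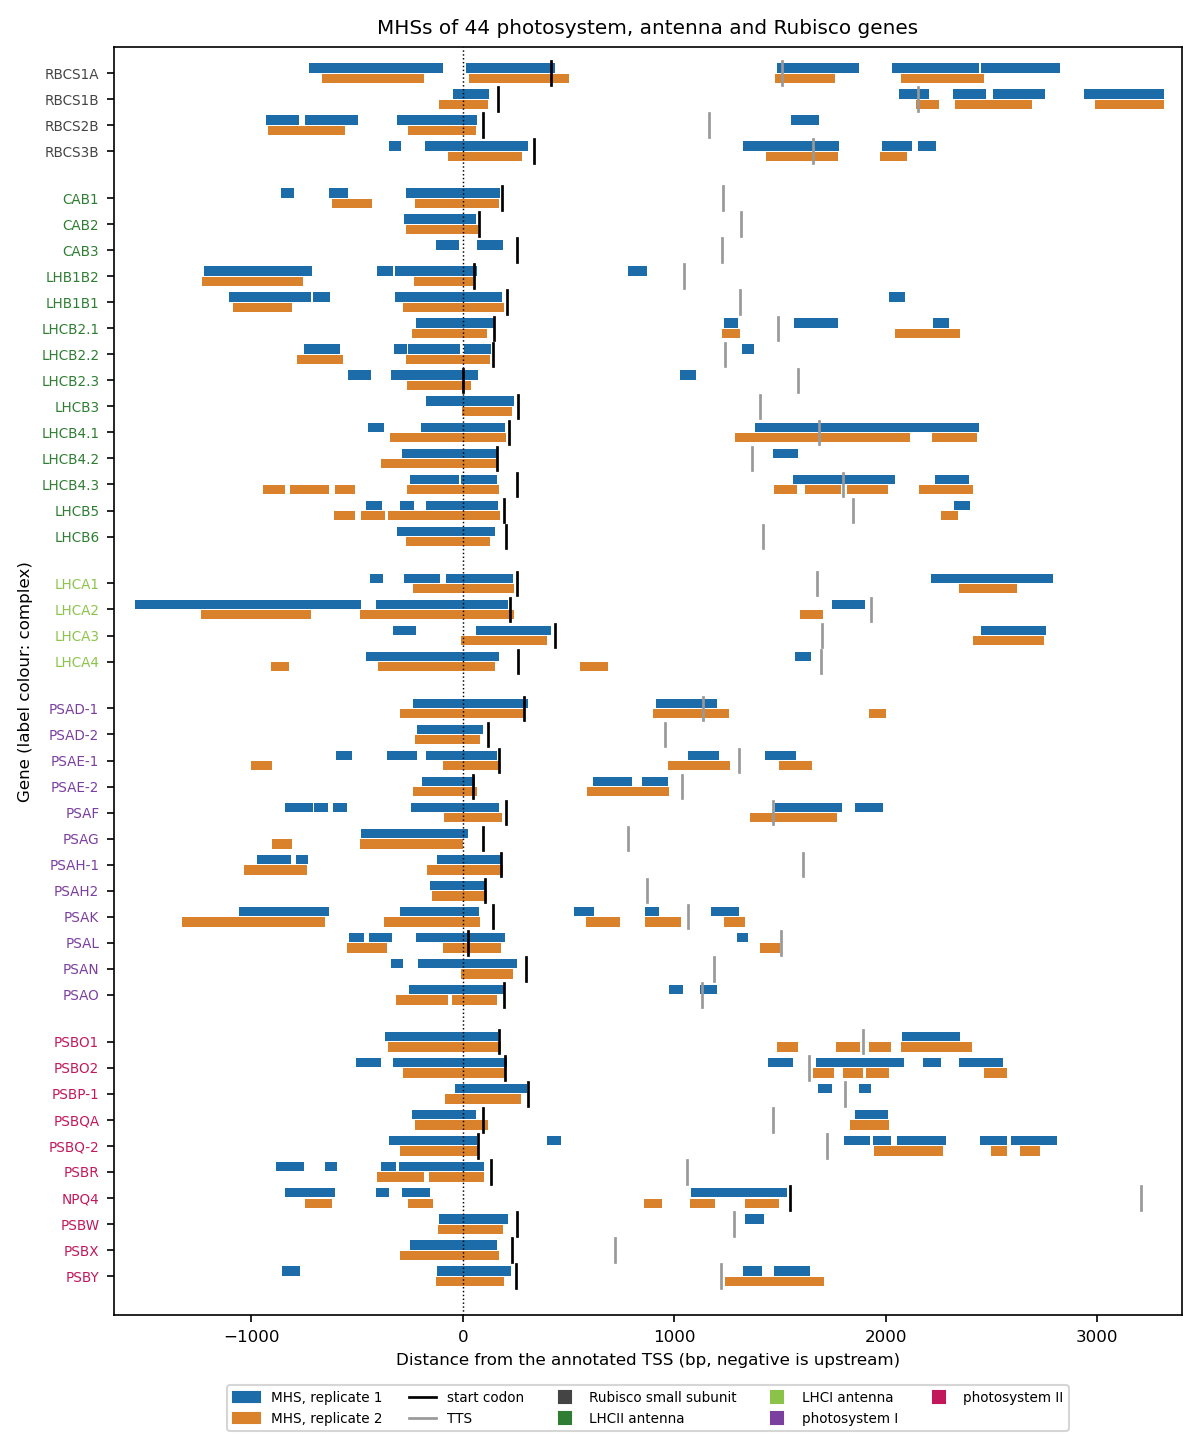
MHSs of each of the 44 genes (rows, label colour by complex) by distance from the annotated TSS in bp, in replicate 1 (blue, upper bar) and replicate 2 (orange, lower bar), with the start codon (black) and the TTS (grey). In 38 genes an MHS spans the TSS in both replicates, and most of these MHSs stop close to the black mark.

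All 4 Rubisco small subunit genes had an MHS in the 500 bp upstream in both replicates, and 3 of 4 had one in the 500 bp past the TTS in both. RBCS2B had a single MHS past the TTS, of 129 bp in replicate 1, with none overlapping it in replicate 2. RBCS1A (AT1G67090, chr1:25048158-25049667) had 5 MHSs in replicate 1 and 4 in replicate 2, covering 1912 and 1628 bp of its window. Its upstream MHS was 632 bp long in replicate 1, ending 97 bp before the TSS, and 481 bp in replicate 2, ending 184 bp before it. A second began 15 bp past the TSS in replicate 1 (420 bp) and 31 bp past it in replicate 2 (470 bp), so the outermost annotated TSS lay between both and in neither.

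RBCS1B, RBCS2B and RBCS3B stand in tandem within chr5:15376988-15385320, with 2264 bp between RBCS3B and RBCS2B and 1095 bp between RBCS2B and RBCS1B. The start-site MHS of RBCS1B (AT5G38430) was the shortest of these, with 170 bp in replicate 1 and 232 bp in replicate 2. That of RBCS2B (AT5G38420) measured 381 and 325 bp, and that of RBCS3B (AT5G38410) 358 and 347 bp. The same open stretch between RBCS2B and RBCS1B counts as promoter of the one and 3′ flank of the other, and the 17 MHSs of the 4 genes in replicate 1 include 3 that lay in the windows of more than 1 gene. Of these 17 MHSs 14 overlapped an MHS of replicate 2, and all 11 of replicate 2 overlapped one of replicate 1.

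The LHCB1 and LHCB2 genes encode the trimers of the major antenna, and all but CAB3 had an MHS within the 500 bp upstream in both libraries. The following lengths are those of the MHS over the TSS. CAB1 (LHCB1.3, AT1G29930) had 445 and 394 bp and CAB2 (LHCB1.1, AT1G29920) 344 and 340 bp in replicates 1 and 2. CAB2 was also 1 of 6 genes with exactly 1 MHS in the window in both replicates, together with LHCB3, LHCB6, PSAD-2, PSAH2 and PSBX.

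CAB3 (LHCB1.2, AT1G29910, chr1:10472280-10473502) was the only gene of the 44 with no MHS in its window in replicate 2. In replicate 1 it had MHSs of 108 bp, from 126 to 19 bp upstream of the TSS, and of 122 bp, from 66 to 187 bp past it. In replicate 2 the nearest MHS midpoint was 2565 bp away from its TSS, in the promoter of CAB2. None of the 31-mers in the 500 bp upstream of CAB3 recurs in the genome, while 25.1% of those in its transcribed region do. The paper reports a higher background and a larger share of chloroplast reads for its second dataset. The part of these or of repeated sequence in the missing call was not tested. The replicate 1 MHS upstream of CAB3 (chr1:10473521-10473628, minus strand) is given because it had no counterpart in replicate 2, and it held neither motif.
CAB3 upstream MHS: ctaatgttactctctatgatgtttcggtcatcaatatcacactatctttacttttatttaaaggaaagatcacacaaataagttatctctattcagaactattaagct

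LHB1B1 (LHCB1.4, AT2G34430) and LHB1B2 (LHCB1.5, AT2G34420) are head to head on chromosome 2, with their TSSs 1039 bp apart, and each had its own start-site MHS rather than 1 shared between them. For LHB1B1 it was 508 bp in replicate 1 and 475 bp in replicate 2. For LHB1B2 it was 388 and 281 bp. Their windows overlap, so 3 MHSs of replicate 1 and 2 of replicate 2 were counted for both genes.

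LHCB2.1 (AT2G05100) had a start-site MHS of 368 bp in replicate 1 and 356 bp in replicate 2. In LHCB2.2 (AT2G05070) replicate 2 had 1 MHS of 396 bp where replicate 1 had 3, of 63, 247 and 130 bp, with the TSS in the gap between the last 2. The opposite held for LHCB2.3 (AT3G27690), with 1 MHS of 410 bp in replicate 1 and 2 of 135 and 164 bp in replicate 2. The same stretch was thus called as 1 MHS in one library and as several in the other.

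Among the remaining LHCII genes, LHCB3, the third protein of the LHCII trimers, had its single MHS from 176 bp upstream to 239 bp downstream in replicate 1 and from 3 bp upstream to 232 bp downstream in replicate 2. LHCB4.1, LHCB4.2 and LHCB4.3, LHCB5 and LHCB6 encode the minor antenna proteins that link the trimers to the core of photosystem II. LHCB4.1 carried an MHS of 1060 bp over its 3′ end in replicate 1, and 824 and 213 bp at the same place in replicate 2. LHCB4.3 had the most MHSs of the 44 in replicate 2, with 8 against 4 in replicate 1, and LHCB6 had 1 MHS in each, of 462 and 399 bp.

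In the LHCI, photosystem I and photosystem II genes, the longest MHS that overlaps the 500 bp upstream is compared between genes. Taking that MHS for each gene, the LHCI genes held both the highest and the lowest length of the 44 in replicate 1. LHCA2, part of the antenna belt of photosystem I, had the highest, 1067 bp, from 1549 to 483 bp before the TSS, where replicate 2 had 522 bp. Its start-site MHS measured 623 bp in replicate 1 and 727 bp in replicate 2. LHCA3, of the same belt, had the lowest, 106 bp, and its larger MHS lay past the outermost TSS, at 64 to 415 bp in replicate 1, where replicate 2 had one of 406 bp. LHCA3 has annotated TSSs 358 bp apart, and both of these MHSs contain the innermost.

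The photosystem I genes all had an upstream MHS in both libraries. PSAD-1, a stromal subunit at which ferredoxin docks, had the highest length of its longest upstream MHS in the complex, with 541 bp in replicate 1 and 591 bp in replicate 2. PSAE-2, which stands beside it at the docking site, had the lowest in replicate 1, 252 bp, with 303 bp in replicate 2. By the same measure its paralogue PSAE-1 had 334 and 262 bp, and PSAD-2 had 314 and 309 bp. The midpoints of these MHSs lay within other annotated genes, AT4G28755 for PSAE-1 and AT1G03140 for PSAD-2.

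PSAF, the subunit that helps plastocyanin dock in the lumen, had 6 MHSs in replicate 1 and 2 in replicate 2. PSAG, a membrane subunit near the antenna side, had 1 in replicate 1 and 2 in replicate 2. Its promoter MHS of 505 and 488 bp ended 24 bp past the TSS in replicate 1 and 1 bp before it in replicate 2. The midpoint of this MHS lay within another annotated gene, AT1G55675, in both replicates. PSAH2, which takes part in the docking of LHCII on photosystem I, had 1 compact MHS of 268 bp in replicate 1 and 260 bp in replicate 2, with borders 10 bp apart upstream and 2 bp apart downstream. PSAK, PSAL, PSAN, PSAO and PSAH-1, further subunits of photosystem I, each had a start-site MHS in both replicates.

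The photosystem II genes include the lumenal proteins of the oxygen-evolving complex, and their genes are described first. PSBO2, 1 of 2 genes for the manganese-stabilising protein, had the highest length of its longest upstream MHS in the complex in replicate 1, 538 bp, with 483 bp in replicate 2, and 6 and 5 MHSs in all. Its paralogue PSBO1 was close, at 533 and 534 bp, the replicate 1 MHS having its midpoint within another annotated gene, AT5G66568. PSBQ-2 had the most MHSs of the 44 in replicate 1, 7 against 4 in replicate 2, and 5 of the 7 lay past its TTS.

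NPQ4, the gene of PsbS, which turns on the dissipation of excess light as heat, had a longest upstream MHS of 131 bp in replicate 1 and 119 bp in replicate 2, the lowest such value among the photosystem II genes in both. Its annotated TSSs are 1475 bp apart, and its start codon lies 1547 bp from the outermost. The longest MHS of NPQ4 in replicate 1, 455 bp, ran from 1078 to 1532 bp past the outermost TSS, ending 15 bp before the start codon. In replicate 2 the same stretch held MHSs of 120 and 163 bp. PSBP-1, PSBQA, PSBR, PSBW, PSBX and PSBY each had an MHS over the TSS in both replicates, with PSBX having 1 MHS in all, of 411 and 465 bp.

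The downstream border of the start-site MHS lay near the start codon in most of the 44 genes. For each gene the MHS whose midpoint was nearest to the start codon on its 5′ side, within 500 bp, was taken, and its downstream border was measured from the start codon, with negative values before it. The median border was at -19 bp in replicate 1 and -19 bp in replicate 2, against -67 and -69 bp over all protein-coding genes with such an MHS. The border was within 50 bp of the start codon in 35 genes in replicate 1 and 30 in replicate 2, against 26.1% and 21.3% of all protein-coding genes. It was within 20 bp in 22 and 18 of the 44 genes, against 3170 and 2334 of all 27444 protein-coding genes. These shares also count genes without such an MHS, which was present in 44 and 43 of the 44 genes. Over all protein-coding genes it was present in 18344 and 16042, and of these 7172 and 5844 had the border within 50 bp.

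In 29 of the 44 genes it was within 50 bp in both replicates, against 17% of all protein-coding genes, those without such an MHS included. Examples are PSBO2, with borders 9 bp past the start codon and at it, CAB2, with borders 14 and 6 bp before it, and PSAH2, with 6 and 8 bp past it. The median distance from the TSS to the start codon was 194 bp in the 44 genes, against 160 bp over all protein-coding genes.

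**Figure D3:**
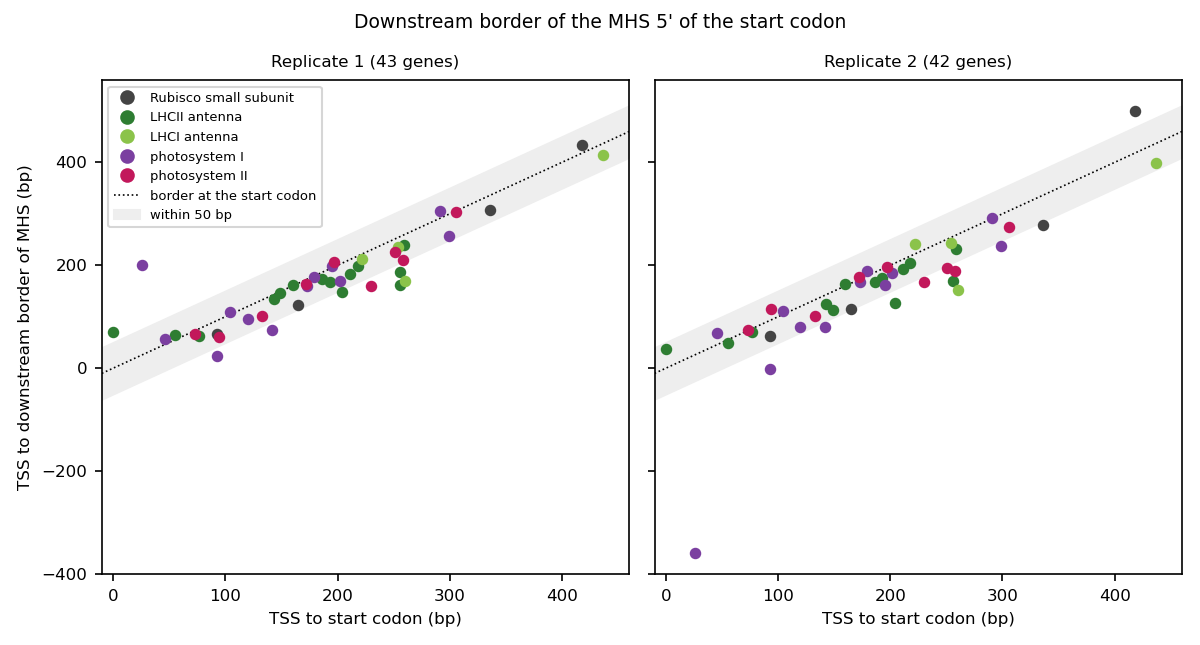
Distance from the TSS to the downstream border of the MHS 5′ of the start codon (vertical axis, bp) against the distance from the TSS to the start codon (horizontal axis, bp), per gene and coloured by complex, in replicate 1 (43 genes, left) and replicate 2 (42 genes, right). NPQ4, with a start codon 1547 bp from the TSS, is not drawn, and most points lie in the grey band within 50 bp of the dotted line that marks the start codon.

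The border was also compared between genes with short and long 5′ leaders, here the distance from the TSS to the start codon. In the 9 genes with a leader of at most 100 bp it was within 50 bp of the start codon in 6 in replicate 1 and 7 in replicate 2. In the 15 genes of over 100 and up to 200 bp this held for 14 and 14, in the 15 of over 200 and up to 300 bp for 10 and 7 (CAB3, among them, had no MHS in replicate 2), and in the 5 with longer leaders for 5 and 2. In replicate 2 the share was thus lower in the genes with leaders over 200 bp than in those below. In the 15 genes with the start codon over 100 and up to 200 bp from the TSS the median border was at -9 bp in replicate 1 and -18 bp in replicate 2, and in the 15 genes at over 200 and up to 300 bp it was at -32 and -41.5 bp. The annotation puts the outermost start codon of PSAL 26 bp and that of LHCB2.3 0 bp from the TSS. For PSAL the MHS ended 174 bp past the start codon in replicate 1, while the one taken in replicate 2 ended 385 bp before it. For LHCB2.3 it ended 71 bp past it in replicate 1 and 38 bp past it in replicate 2.

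The downstream border was also the one that recurred between libraries. In the 38 genes with an MHS over the TSS in both replicates, the downstream borders of replicate 1 and replicate 2 differed by a median of 11.5 bp and the upstream borders by 54 bp. In all 12784 protein-coding genes with such MHSs the differences were 21 and 43 bp. The downstream border thus differed less than the upstream one in both sets. The downstream borders were at most 20 bp apart in 28 of the 38 genes, and the upstream borders in 8. Borders at most 20 bp apart were not counted over all protein-coding genes.

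Every G-box in the 500 bp upstream of these genes stood inside an MHS. In the 500 bp upstream of the outermost TSS, 10 of the 44 genes had a CACGTG, against 9.35% of all protein-coding genes. It lay inside an MHS in the same 10 genes in replicate 1, against 6.38%, and in replicate 2, against 6.87%. Of the 2565 protein-coding genes with an upstream G-box, 1657 had one inside MHSs of both replicates. The I-box, GATAAG on either strand, was found in 13 genes, against 22.4% of all protein-coding genes, and inside an MHS in 10 genes in replicate 1, against 9.33%, and 10 in replicate 2, against 7.67%. It lay inside MHSs of both replicates in 9 of these 13 genes, and in 1879 of the 6161 protein-coding genes with an upstream I-box.

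The 10 genes with a G-box are spread over all 5 complexes. Their sequences follow, each with 15 bases on both sides of the G-box (in PSAH2, PSBQA and PSBQ-2, which have 2, 1 of them), to show the bases around the motif. They stand on TAIR10.1 at chr5:15382174-15382209 (minus), chr3:10255803-10255838 (plus), chr5:208777-208812 (plus), chr1:5447984-5448019 (minus), chr3:17495101-17495136 (minus), chr2:8736656-8736691 (plus), chr1:20803828-20803863 (minus), chr1:19454716-19454751 (plus), chr4:11334282-11334317 (plus) and chr4:2673300-2673335 (minus), in the order printed.
RBCS2B: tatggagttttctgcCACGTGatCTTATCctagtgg
LHCB2.3: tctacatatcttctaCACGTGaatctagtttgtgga
LHCB4.1: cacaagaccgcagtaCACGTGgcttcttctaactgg
LHCB6: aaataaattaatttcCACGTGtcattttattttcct
LHCA4: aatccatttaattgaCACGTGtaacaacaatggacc
PSAE-2: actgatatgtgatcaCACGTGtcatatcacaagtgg
PSAG: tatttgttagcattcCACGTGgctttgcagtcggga
PSAH2: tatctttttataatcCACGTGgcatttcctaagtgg
PSBQA: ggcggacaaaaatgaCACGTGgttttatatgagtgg
PSBQ-2: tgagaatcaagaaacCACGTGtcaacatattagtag
One feature of these lines was noticed by eye: RBCS2B, PSAE-2, PSAH2 and PSBQA end in the letters gtgg at the same distance from the G-box. Written as CACGTGNNNNNNNNNNNGTGG on the strand of the gene, it was present in 4 of the 10 genes of the 44 with an upstream G-box, and in 28 of the 2565 protein-coding genes with one, which is 1.09%. Since it was picked from these sequences after they were read, the counts are a description only.

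Measured from the innermost annotated TSS, a choice made after the data were seen, the count of genes with motifs was larger. A G-box lay inside MHSs of both replicates in 14 genes, against 6.36% of all protein-coding genes, the 4 added genes being RBCS1A, RBCS3B, LHCA3 and PSBP-1. Of the 2631 protein-coding genes with a G-box in this region, 1745 had one inside MHSs of both replicates. All 17 G-boxes of the 14 genes were inside MHSs in both replicates, and apart from that of PSAG, 394 bp upstream, they ended between 140 and 7 bp upstream of the TSS.

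An I-box lay inside MHSs of both replicates in 16 genes, against 7.43% of all protein-coding genes. All 4 RBCS genes were among them, with 2 to 3 I-boxes each. Of the 30 I-boxes 25 were inside MHSs in both replicates, a share that was not counted over the I-boxes of all protein-coding genes. The I-boxes outside MHSs in at least 1 replicate were those of LHB1B1, LHB1B2 and LHCB2.1 and 1 of 2 in both PSAF and PSAL. Of the 44 genes 9 had both motifs and 20 had neither in this region, and CAB1, CAB2 and CAB3 were among those with neither. Genes with both or neither motif were not counted over all protein-coding genes.

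**Figure D4:**
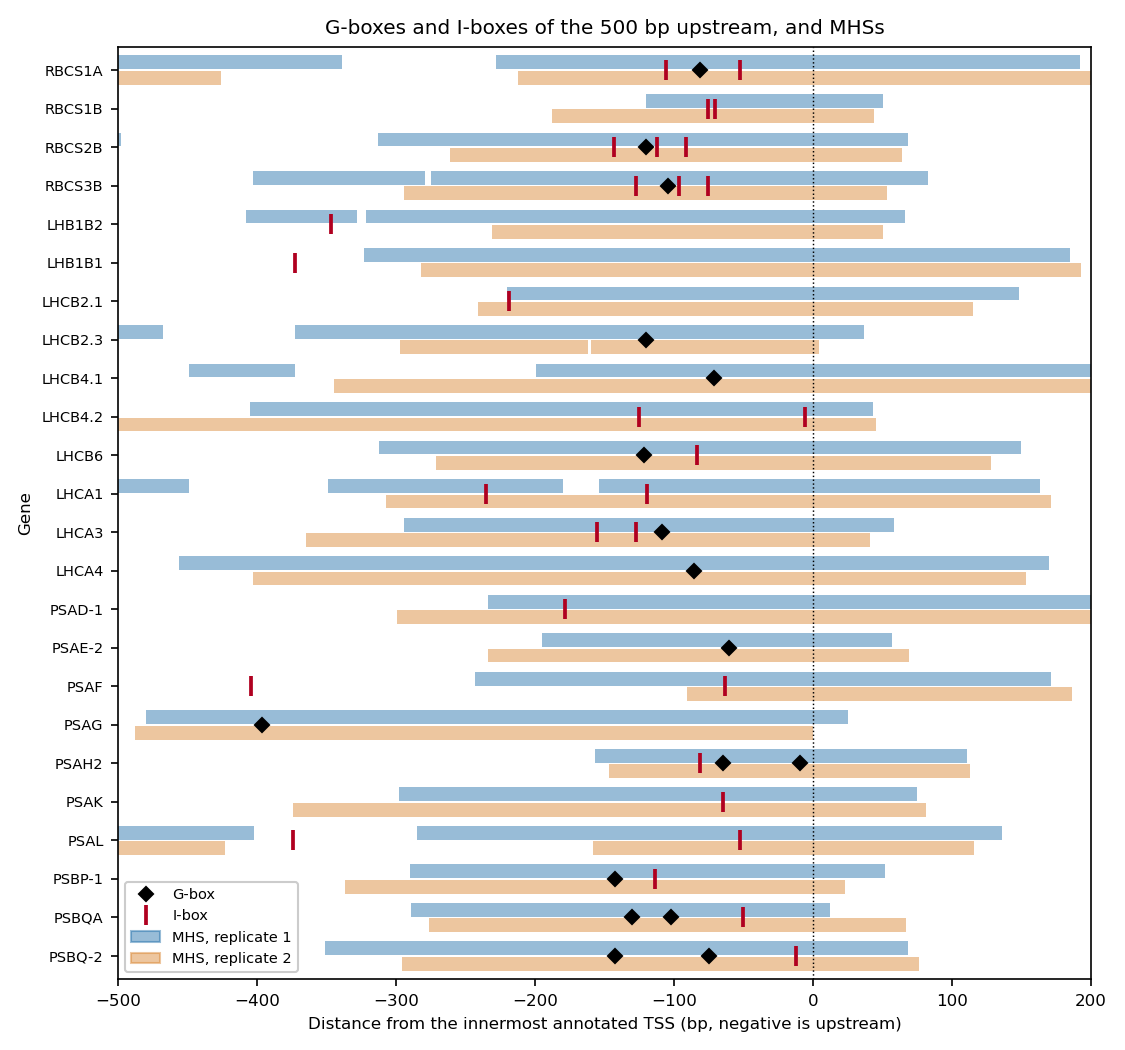
G-boxes (black diamonds) and I-boxes (red ticks) in the 500 bp upstream of the innermost annotated TSS of the 24 genes that have one, by distance from that TSS in bp, with the MHSs of replicate 1 (blue, upper bar) and replicate 2 (orange, lower bar). Every G-box lies on a bar of both colours, and 5 I-boxes miss at least 1 of them.

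The other motifs were searched on both strands of the 500 bp upstream of the outermost TSS. The CCAAT box was in the upstream 500 bp of 33 of the 44 genes (75%), against 69.2% of all protein-coding genes, and the TATA box TATAAA in 27 (61.4%), against 67.3%. The ACGT core, which every G-box contains, was in 33 genes (75%), against 64.2%. The evening element AAAATATCT was in 0 of the 44 genes, against 4.44%. A match is a description of letters in a window and not evidence that a protein binds there.

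MHSs within the genes were counted next. An MHS midpoint in the gene body, more than 200 bp from both ends, was found in 9 genes in replicate 1, against 22.4% of all protein-coding genes, and in 9 in replicate 2, against 18%. It was found in 5 genes in both replicates, against 13.6%, namely 1 Rubisco small subunit gene, 1 LHCII gene, 2 photosystem I genes and 1 photosystem II gene. Of the whole transcribed region, both ends included, a median of 14.4% was covered in replicate 1 and 14.5% in replicate 2 against 4.63% and 3.75%. This share includes the MHS over the TSS, which where present reached a median of 164 and 168 bp past it, against 102 and 103 bp. The 44 genes were also shorter, with a median of 1411.5 bp against 2078 bp, so the share does not describe the gene body alone.

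Past the TTS, an MHS overlapped the first 500 bp in both replicates in 15 of the 44 genes, against 36.1% of all protein-coding genes. These were 3 of 4 Rubisco small subunit genes, 3 of 14 LHCII genes, 0 of 4 LHCI genes, 4 of 12 photosystem I genes and 5 of 10 photosystem II genes. By the midpoint, 39 of the MHSs of replicate 1 and 29 of those of replicate 2 lay downstream of a TTS. Counted over all MHSs of the 44 genes, upstream ones included, 27 and 18 had the midpoint within another annotated gene.

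The MHSs of the 44 genes were compared between the libraries by overlap of at least 1 bp. Of 138 MHSs in replicate 1, 97 overlapped an MHS of replicate 2 (70.3%, exact binomial 95% interval 61.9 to 77.8), against 61.9% of all MHSs. Of 107 in replicate 2, 92 overlapped one of replicate 1 (86.0%, interval 77.9 to 91.9), against 86.9%. The interval covers only the counting of MHSs, and MHSs of 1 gene are not independent.

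The counts were then split by the length of the MHS. Of those of at most 100 bp, 14 of 40 in replicate 1 (35.0%, against 26.2% of all such MHSs) and 7 of 15 in replicate 2 (46.7%, against 60.0%) overlapped one of the other library. Of those over 100 bp the counts were 83 of 98 (84.7%, against 82.4%) and 85 of 92 (92.4%, against 91.1%). All 30 and 22 MHSs over 400 bp recurred, against 99.4% and 99.8% of all such MHSs. MHSs centred in the 5′ UTR recurred in 16 of 17 cases in replicate 1 and 15 of 15 in replicate 2, and those in the 3′ UTR in 5 of 11 and 5 of 8. Their median lengths were 347 and 309 bp in the 5′ UTR and 76 and 168.5 bp in the 3′ UTR. Place and length thus cannot be told apart here, and recurrence by place was not counted over all MHSs.

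Several features of the genome stand beside these values. Of the 44 genes 37 had another annotated gene in the window, and 6 had a divergent protein-coding neighbour within 1000 bp (LHCB2.3, LHCB6, PSAE-2, PSAH2, PSAO and PSBQA), so the region upstream of these genes is also upstream of that neighbour, and an MHS there cannot be told apart by gene. Repeated 31-mers made up over 20% of the transcribed region of 10 genes, namely RBCS1B, RBCS2B, RBCS3B, the LHCB1 genes and LHCB2.1 and LHCB2.2, and 36 genes had none in the 500 bp upstream. None of these counts of neighbours and repeats was made over all protein-coding genes. The part of repeats in the MHS calls was not tested.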

How the data were processed

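Reads of both libraries were trimmed with Cutadapt, aligned to TAIR10 with Bowtie 2 in a sensitive local mode by the authors. Only alignments over the full read and of mapping quality above 10 were used by them, and their program Jazz then called the MHSs of each library. The tool versions and the Bayes factor cut-off of Jazz were not given in the sources used here. The files deposited hold positions only, with no score, count or signal. Since only the second library is labelled with a number, the other was taken as replicate 1. According to the paper, its second dataset had a higher background and more chloroplast reads than its first. The effect of this on the calls was not tested.

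Starts were counted from 0 and ends were left out of the interval, as BED files do, and coordinates printed here count from 1. So read, 19 of 19 sequences of the study's synthesised fragments matched the reference, TAIR10.1 with its RefSeq annotation. The TSS is the outermost annotated one unless stated. An overlap needed 1 bp. The analysis used Python 3.11.15, numpy 2.4.6, scipy 1.17.1, matplotlib 3.10.9 and bedtools 2.31.1, and 102 of 102 simulated cases were recovered. bedtools gave the same overlap counts.

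With 1 group there is no test between conditions: counts and medians stand beside those of all protein-coding genes, with no test. Named were the RBCS, LHCB1 and LHCB2 genes, in each other complex the genes whose longest upstream MHS in replicate 1 was the longest and the shortest, genes lacking an upstream MHS in a replicate, and the genes with most and fewest MHSs. The other genes named, such as PSBO1, PSAE-1, LHCB4.1 and LHCB4.3, were chosen after their values were seen. The members and lists were chosen with earlier results of these data known. The innermost TSS and the start-codon border were added after the data were seen.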

Additional observations from a re-analysis of the deposited data

How the results depend on the processing

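The presence of an upstream MHS in both replicates held in 43 genes and in 42 with 200 bp upstream, 43 with 1000 bp, 43 from the start codon and 30 when the midpoint had to lie upstream. Without either replicate it was 43 to 44. An overlap of at least 50% of both MHSs lowered the share of MHSs recurring from 70.3% to 46.4% (replicate 1) and from 86.0% to 59.8% (replicate 2). Leaving out MHSs under 100 bp gave 81.6% for replicate 1, a median of 2 MHSs and 565 bp per window, a length of 305 bp and 3 genes with a body MHS in both replicates. Merging MHSs within 50 bp gave a length of 275 bp. Measured from the start codon, the nearest midpoint was 207 bp away against 70 bp from the TSS, and the nearest border was 0 bp from the TSS. Without replicate 1 the medians were 2 MHSs, 646 bp covered, a length of 262 bp and 72 bp to the TSS, and each replicate alone gave 9 genes with a body MHS, against 5 in both. The innermost TSS, added after seeing the data, gave an I-box inside an MHS of replicate 1 in 17 genes against 10, and a G-box in 14 against 10. A limit of 20 bp for the start-codon border, also added, gave 15 genes against 29. Of 47 alternatives 29 left the value within the limits set and 18 moved it; the cause was not tested. No paired analysis was possible because both libraries form 1 group. Read depth per MHS is unknown, so its effect on the calls was not tested.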

Other observations

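Other nuclear photosynthesis genes, 35 in a list of electron carriers, ATP synthase subunits, carbon fixation, chlorophyll synthesis and rare antenna genes, had an upstream MHS in both replicates in 33 cases, against 65.5% of all protein-coding genes. The 2 without were genes of carbon fixation: GAPB, a subunit of chloroplast glyceraldehyde-3-phosphate dehydrogenase, had an upstream MHS of 198 bp in replicate 2 and none in replicate 1, and PGK1, a phosphoglycerate kinase, had one of 170 bp in replicate 1 and none in replicate 2.

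Among the electron carriers PETC, the Rieske protein of the cytochrome complex, had an upstream MHS of 526 bp in replicate 1 and 519 bp in replicate 2. FNR2, 1 of the ferredoxin-NADP reductases, had 187 and 182 bp. In chlorophyll synthesis PORB, a protochlorophyllide oxidoreductase, had 563 and 533 bp. PRK, the phosphoribulokinase of the Calvin cycle, had 843 bp in replicate 1 and 391 bp in replicate 2, and PSBP-2, a rare relative of PSBP-1, had 167 and 156 bp. An upstream MHS over 400 bp in both replicates was found in 5 of these 35 genes, against 10 of the 44 genes described above and 7.63% of all protein-coding genes. Their longest upstream MHS, where present, had a median of 388 bp in replicate 1 and 318 bp in replicate 2, against 384.5 and 360 bp. An MHS lay over the TSS in 33 and 31 of the 35, against 39 and 40 of the 44. The 35 genes were listed by function, and those named were chosen after their values were seen.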
